A study of Mus musculus with 12 samples.

Results

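The genes described here encode the core of the PI3K, Akt and mTOR pathway: the PI3K subunits Pik3ca and Pik3r1, the kinases Akt1, Akt2 and Mtor, the inhibitor pair Tsc1 and Tsc2, the small GTPase Rheb and the S6 kinase Rps6kb1. Every probe set annotated with 1 of these symbols and no other was taken, which gave 15 of the 22626 probe sets tested, for 8 of the 9 genes. Rps6kb1 was not analysed here. Pik3ca, Akt1, Akt2, Mtor and Tsc1 had 2 probe sets each, Pik3r1 had 3, and Tsc2 and Rheb had 1 each.

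Expression was measured in 12 salivary tumors, each on 1 Affymetrix mouse array. All mice carried the MMTV-ras transgene, in which the mouse mammary tumor virus promoter drives ras in mammary and salivary epithelium, and the animals were adults of a mixed Balb/c and C57BL/6 background. Of the 12 tumors, 4 came from p53+/+ mice (WT), 4 from p53-/- mice (KO) and 4 from p53R172H/R172H mice (MT). The p53 of the MT mice carries a missense change in the DNA-binding domain. The study reported a later onset of salivary tumors in p53+/+ mice than in the other genotypes. Age was not part of any fit, and its part in the differences was not tested. The labels number the tumors 1 to 4 within a genotype and do not state whether 2 tumors could share a mouse. The p-values therefore rest on the variation among the tumors as labelled. RNA was taken from frozen tumor sections. The authors' methods state that relatively small tumors with typical growth and histology and without extensive necrosis were chosen. Samples had to consist mostly of homogeneous tumor tissue. In RNA from such sections, fewer cells of a type and less RNA per cell cannot be told apart.

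PI3K, a lipid kinase made of a catalytic and a regulatory subunit, is switched on by growth factor receptors and by active Ras and makes the membrane lipid that recruits Akt. Akt phosphorylates Tsc2 and thereby relieves the brake that the Tsc1-Tsc2 complex puts on Rheb, and Rheb bound to GTP activates the mTOR kinase complex that drives protein synthesis and cell growth. The pathway is mostly regulated by phosphorylation, which arrays do not measure, and wild-type p53 is known to induce several of its inhibitors.

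Between WT and KO tumors, 2 of the 15 probe sets passed the test, and both were lower in WT tumors: 1 for Pik3ca and 1 for Tsc1. The Pik3ca probe set was 2.08-fold and the Tsc1 probe set 1.58-fold lower. No probe set of the 8 genes passed in either comparison with MT tumors. The test was limma's moderated test on log2 values with Benjamini-Hochberg adjustment over all 22626 probe sets, at an adjusted p of 0.05. Counts are also given from the methods' t-test and from limma with array weights, which give less influence to arrays that vary more. Of all probe sets, 4.57% passed between WT and KO tumors, 1.94% as lower in WT tumors.

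The upstream sequences of Pik3ca and Rheb are shown because these genes and Tsc1 were the members whose WT and KO values did not overlap at a probe set. They are the 250 bases before the RefSeq start of each gene in the GRCm38.p6 assembly, at chr3:32396815-32397064 on the plus strand for Pik3ca and at chr5:24842362-24842611 on the minus strand for Rheb. Capitals mark, in order, the p53 decamer and the Ets core CCGGAAG (read on the opposite strand) for Pik3ca, and the E-box CACGTG for Rheb.
Pik3ca: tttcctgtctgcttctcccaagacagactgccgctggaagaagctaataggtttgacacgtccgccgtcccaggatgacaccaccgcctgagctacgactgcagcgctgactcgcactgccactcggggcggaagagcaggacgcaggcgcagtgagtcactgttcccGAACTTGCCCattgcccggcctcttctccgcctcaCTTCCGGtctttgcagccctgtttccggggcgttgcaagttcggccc
Rheb: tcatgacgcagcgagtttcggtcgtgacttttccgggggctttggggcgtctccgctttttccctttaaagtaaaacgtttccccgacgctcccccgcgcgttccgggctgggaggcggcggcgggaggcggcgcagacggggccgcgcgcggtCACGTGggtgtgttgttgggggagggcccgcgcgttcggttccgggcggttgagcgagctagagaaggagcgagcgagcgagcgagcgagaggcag
All windows of RefSeq promoters, which run from 250 bases before to 50 bases after the start, were searched on both strands for these motifs, which did not overlap in the windows shown. The p53 decamer was present in 8.4% of the 32851 windows, the Ets core in 8.9% and the E-box in 7.2%. Of the 13 windows of the 8 genes, the p53 decamer also occurred in 1 Akt2 window, and the Ets core in those of Mtor and Tsc2. The FoxO core TGTTTAC, present in 3.6% of all windows, was found in 1 window of Akt1. A pair of p53 decamers separated by at most 13 bases, present in 0.1% of all windows, was found in none of the 13, and the Tsc1 window held none of the motifs.

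The tumors differed in ways other than p53 genotype. The poly-A control RNAs, which are added before labeling, gave means of 10.38 to 10.56 on the log2 scale in MT1, MT2 and MT3 and of 3.98 to 4.23 in the other 9 tumors, MT4 included. A further fit therefore had a term for MT1, MT2 and MT3 against the rest, so that its MT differences rest on MT4 alone. Over the 34 probe sets of the members and of the other genes that passed or belong to the p53-linked list, the smallest adjusted p of an MT difference in that fit was 0.152. The 18S ribosomal RNA probe sets averaged 8.90 to 9.33 in the WT tumors except WT4, which read 7.51. The KO tumors lay at 7.36 to 8.03, and the MT tumors at 6.41 to 6.59 except MT4, which read 7.66. The level of actin at its 3' end exceeded that at its 5' end by 1.05 in KO4 and by 0.17 to 0.58 in the other 11 tumors, which is higher where RNA is more degraded. Their part in the results was not tested. Among cell type markers, the mean level of 7 epithelial genes was 9.34 to 10.76 in WT, 10.65 to 11.16 in KO and 10.45 to 11.08 in MT tumors. All 12 epithelial probe sets had a lower mean in WT than KO tumors, and 0 passed the limma test, with 5 at an unadjusted p under 0.05, 0 by the methods' t-test and 6 with array weights. The mean of 7 leukocyte genes was 6.93 to 8.24 in WT, highest in WT1, 6.53 to 6.92 in KO and 6.59 to 7.24 in MT tumors, and 1 of 9 probe sets passed as higher in WT than KO tumors. Markers of salivary acini, 8 genes, were at 10.78 to 11.85 in WT, 8.93 to 10.58 in KO and 9.55 to 10.78 in MT tumors. Of their 11 probe sets, 2 passed as higher in WT than KO tumors. On average 7 of the 11 were higher and 4 lower in WT than KO tumors. At the 1 probe set per gene used for these levels, 5 of the 8 genes were higher in WT tumors. Fibroblast markers overlapped between genotypes, at 7.05 to 9.27 in WT, 7.52 to 8.79 in KO and 7.57 to 8.56 in MT tumors, and 0 of 12 probe sets passed between WT and KO tumors, with 2 at an unadjusted p under 0.05. Endothelial markers passed as higher in WT than KO tumors in 2 of 7 probe sets. Markers of basal and myoepithelial cells, of adipocytes and of skeletal muscle passed in 0 of 15, 0 of 7 and 0 of 6 probe sets in that comparison, with 5, 2 and 1 at an unadjusted p under 0.05, 0 by the methods' t-test, and 4, 0 and 0 with array weights. Over all probe sets 4.57% passed by limma between WT and KO tumors, 23.9% had such an unadjusted p and 14.5% passed with array weights. No probe set was annotated with Trp53 alone, so the deleted or mutated gene was not analysed here.

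Pik3ca, on chromosome 3, encodes the catalytic subunit p110-alpha of PI3K. At probe set 1423144_at its log2 level was 6.85, 6.56, 6.78 and 7.30 in WT tumors 1 to 4. The same probe set read 7.79, 7.54, 7.78 and 8.59 in KO tumors and 7.26, 7.90, 7.68 and 7.63 in MT tumors. Every WT tumor lay below every KO tumor, and the MT tumors overlapped with both, MT1 lying below WT4 and the other MT tumors within the KO range. The WT mean of 6.87 ± 0.31 (SD, n = 4) was lower than the KO mean of 7.92 ± 0.46 (SD, n = 4) by 1.05 (SE 0.23, 95% interval -1.57 to -0.54, limma adjusted p = 0.0323). The call was lost, at adjusted p of 0.0795 without WT1, 0.0616 without WT2, 0.0852 without WT3, 0.0539 without KO1 and 0.0603 without KO3, and at 0.0683 in a fit to the 8 WT and KO tumors. The MT mean of 7.62 ± 0.27 (SD, n = 4) differed from the WT mean by 0.75 (95% interval 0.23 to 1.26, limma adjusted p = 0.136), which did not pass. With the term for MT1, MT2 and MT3, that difference was 0.76 (adjusted p = 0.613), and with array weights it was 0.75 and passed (adjusted p = 0.0127). Between MT and KO tumors the difference was -0.31 (95% interval -0.82 to 0.21, adjusted p = 0.743), and -0.29 with the term.

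The other Pik3ca probe set, 1460326_at, was designed from the same transcript record, so the 2 are not independent readings. It gave 7.25, 6.96, 7.08 and 7.81 in WT tumors, 7.61, 7.90, 8.34 and 8.94 in KO tumors and 7.43, 8.52, 7.84 and 8.36 in MT tumors. WT4 read above KO1, so the WT and KO groups overlapped. The difference between WT and KO tumors was -0.92 (95% interval -1.62 to -0.23), a 1.90-fold lower level, and did not pass (limma adjusted p = 0.11), whereas it passed with array weights at -0.98 (adjusted p = 0.0315). MT tumors differed from WT tumors by 0.76 (95% interval 0.07 to 1.46, adjusted p = 0.224), or by 1.08 with the term for MT1, MT2 and MT3 (adjusted p = 0.581). Beside the Pik3ca differences, the mean difference of the 1053 probe sets on chromosome 3 was -0.19 between WT and KO tumors, and WT tumors had the lower epithelial and higher leukocyte marker levels given above. Their part in the result was not tested.

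**Figure D1:**
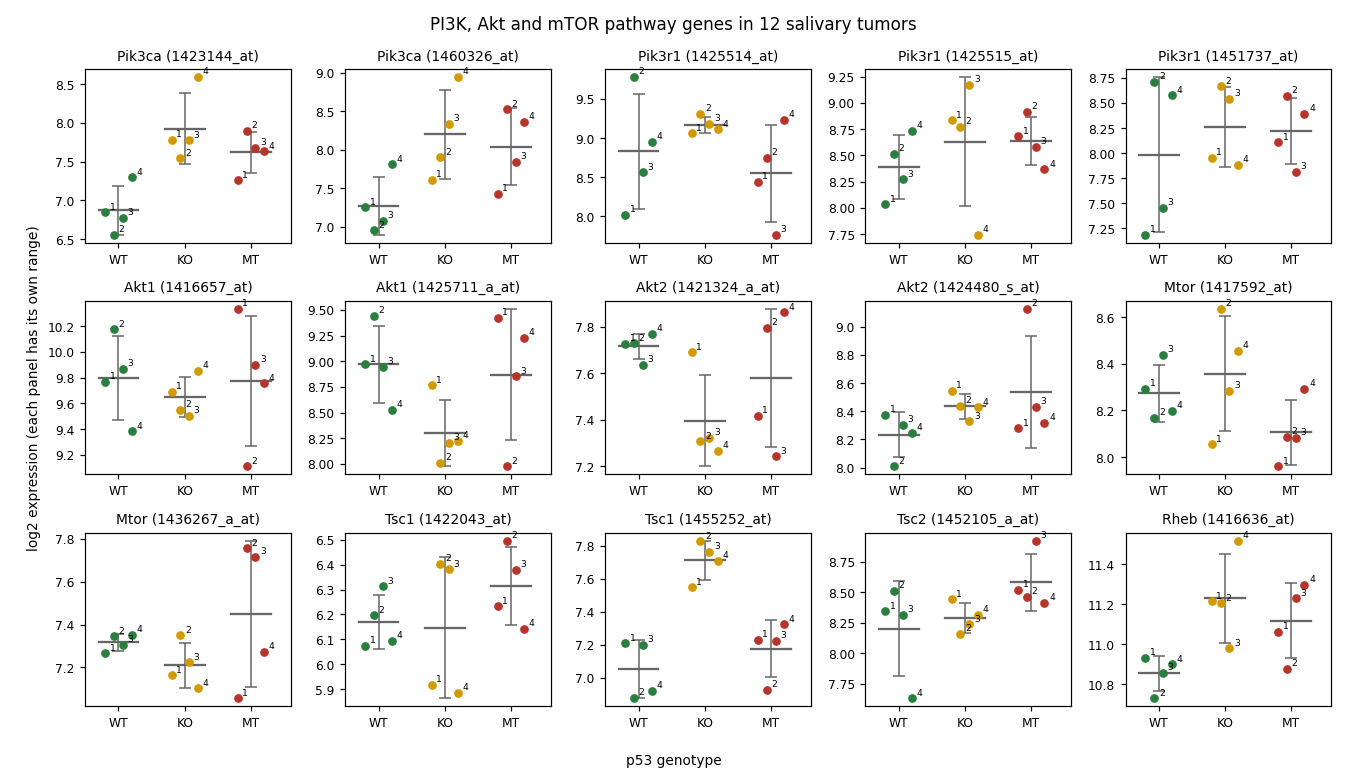
Log2 level of the 15 probe sets of the pathway genes in the 12 tumors, with 1 point per tumor, grouped as WT, KO and MT; bars give the mean and SD of 4 tumors. At Pik3ca 1423144_at, Tsc1 1455252_at and Rheb 1416636_at all WT tumors lie below all KO tumors, and the levels of different probe sets cannot be compared with each other.

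Pik3r1, on chromosome 13, encodes the regulatory subunit p85-alpha, which stabilizes and restrains p110. Its 3 probe sets, all designed from a single transcript record, did not pass in any comparison. At 1425514_at the WT tumors spread widely, at 8.02, 9.78, 8.56 and 8.95, while the KO tumors kept to 9.06, 9.31, 9.18 and 9.11. MT tumors read 8.44, 8.75, 7.77 and 9.23 there. The KO values were close together (SD 0.11, n = 4) and lay inside the WT range. The WT tumors were lower than the KO tumors on average at all 3 probe sets, with differences of -0.34, -0.24 and -0.28 and 95% intervals that all spanned 0 (-1.12 to 0.45, -0.84 to 0.36 and -1.04 to 0.48). The difference between MT and KO tumors was -0.62 at 1425514_at (95% interval -1.40 to 0.17), 0.07 with the term for MT1, MT2 and MT3, and it was 0.01 and -0.04 at the other probe sets (-0.26 and 0.13 with the term).

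The Akt kinases are the main effectors of the PI3K lipid product, Akt1 being linked to growth and survival and Akt2 to glucose handling. Neither gene passed in any comparison. At Akt1 1425711_a_at the levels were 8.97, 9.44, 8.95 and 8.53 in WT tumors, 8.77, 8.01, 8.20 and 8.22 in KO tumors and 9.42, 7.98, 8.85 and 9.23 in MT tumors. KO1 read above WT4, so the groups overlapped, and MT2 was lower than every KO tumor. The difference between WT and KO tumors was 0.67 (SE 0.30, 95% interval 0.01 to 1.33, limma adjusted p = 0.204). MT tumors differed from KO tumors by 0.57 (95% interval -0.09 to 1.23, adjusted p = 0.592), or by 0.93 with the term for MT1, MT2 and MT3 (adjusted p = 0.937). At the other Akt1 probe set, 1416657_at, the WT and KO tumors differed by 0.15 (95% interval -0.37 to 0.67, adjusted p = 0.745), and the MT tumors held both the highest and the lowest value, 10.34 in MT1 and 9.11 in MT2.

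The Akt2 probe sets disagreed in sign between WT and KO tumors. At 1421324_a_at the WT tumors lay within 7.64 to 7.77 and the KO tumors read 7.69, 7.31, 7.32 and 7.27, a difference of 0.32 (95% interval -0.01 to 0.65, limma adjusted p = 0.222). At 1424480_s_at, whose suffix marks probes that may match more than 1 gene, the difference was -0.20 (95% interval -0.58 to 0.18, adjusted p = 0.516). KO1 alone of the KO tumors reached the WT range at the first of these. MT tumors differed from WT tumors by -0.14 and 0.30 at the respective probe sets, and neither difference passed (adjusted p of 0.651 and 0.361). With the term for MT1, MT2 and MT3 they were 0.15, with the opposite sign, and 0.08.

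Tsc1, on chromosome 2, encodes hamartin, the partner that stabilizes the Rheb-inhibiting protein Tsc2. At probe set 1455252_at it read 7.21, 6.88, 7.20 and 6.92 in WT tumors. The KO tumors were at 7.55, 7.83, 7.76 and 7.71, and the MT tumors at 7.23, 6.93, 7.22 and 7.32. All 4 KO tumors lay above all 8 WT and MT tumors, and the WT and MT tumors overlapped. The WT mean of 7.05 ± 0.18 was lower than the KO mean of 7.71 ± 0.12 (SD, n = 4 each) by 0.66 on the log2 scale (SE 0.12, 95% interval -0.93 to -0.39, limma adjusted p = 0.0196). This difference passed without any 1 of the 12 tumors, at adjusted p between 0.0211 and 0.0496. Among the 8 genes it was the only probe set to pass the F test across the 3 genotypes (adjusted p = 0.0373), which 2.34% of all probe sets passed. That F-test call was kept in 3 of the 12 fits that left out 1 tumor, with adjusted p of 0.0248 to 0.0892 over them, and was lost without dim probe sets, with trended and robust moderation, with the ordinary F test and with either block.

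The MT mean of Tsc1, 7.18 ± 0.17 (SD, n = 4), was below the KO mean by 0.54 (SE 0.12, 95% interval -0.81 to -0.27), and the groups did not overlap. This difference had an unadjusted p of 0.00106 and did not pass after adjustment in limma's fit (adjusted p = 0.216). With the term for MT1, MT2 and MT3 it was -0.39 (adjusted p = 0.915). Between MT and WT tumors the difference was 0.12 (95% interval -0.15 to 0.39, adjusted p = 0.611), or 0.27 with the term. The other Tsc1 probe set, 1422043_at, read low, at 5.89 to 6.50 in all 12 tumors, and gave a difference of 0.02 between WT and KO tumors (95% interval -0.29 to 0.34, adjusted p = 0.945). Its interval does not include the difference seen at 1455252_at. The mean difference between WT and KO tumors over the 1625 probe sets on chromosome 2 was -0.13, and its part in the Tsc1 result was not tested.

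The profiles most like that of Tsc1 1455252_at across the 12 tumors, 1 probe set per gene, were those of Gtf3c2 (Pearson r = 0.957), Samd8 (r = 0.93), Sbno1 (r = 0.922), Zfp207 (r = 0.916) and Msl1 (r = 0.914). These correlations describe 12 tumors of 3 genotypes measured on the same arrays. Gtf3c2 encodes a subunit of the RNA polymerase III factor TFIIIC, and its WT mean of 8.38 and MT mean of 8.55 were below its KO mean of 9.15. The other 4 genes likewise had their highest mean in KO tumors.

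Tsc2, on chromosome 17, encodes tuberin, the subunit that switches Rheb off. Its probe set 1452105_a_at did not pass in any comparison. The levels were 8.34, 8.51, 8.32 and 7.63 in WT tumors, 8.44, 8.16, 8.24 and 8.31 in KO tumors and 8.52, 8.46, 8.92 and 8.41 in MT tumors. WT4 was the lowest of the 12. The differences were -0.09 between WT and KO tumors (95% interval -0.49 to 0.32) and 0.38 between MT and WT tumors (95% interval -0.03 to 0.79, limma adjusted p = 0.288), or 0.21 with the term for MT1, MT2 and MT3.

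Rheb, on chromosome 5, encodes the GTPase that the Tsc complex inhibits and that activates mTOR. At probe set 1416636_at it was at 10.93, 10.73, 10.86 and 10.90 in WT tumors, 11.21, 11.21, 10.98 and 11.52 in KO tumors and 11.06, 10.88, 11.23 and 11.30 in MT tumors. Every WT tumor was below every KO tumor, the highest WT value being 10.93 and the lowest KO value 10.98. The difference of -0.38 (SE 0.13, 95% interval -0.66 to -0.09), a 1.30-fold lower level, did not pass (limma adjusted p = 0.116). MT tumors lay between, at 0.26 above WT tumors (95% interval -0.03 to 0.55, adjusted p = 0.301) and 0.11 below KO tumors on average. With the term for MT1, MT2 and MT3 the difference between MT and WT tumors was 0.44 (adjusted p = 0.578), and that between MT and KO tumors was 0.07, with the sign turned.

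Mtor, on chromosome 4, encodes the kinase at the end of this chain, shared by both mTOR complexes. Neither of its probe sets passed in any comparison. At 1417592_at the WT tumors were at 8.17 to 8.44, the KO tumors at 8.05 to 8.64 and the MT tumors at 7.96 to 8.29. Its differences were -0.08 between WT and KO tumors (95% interval -0.38 to 0.21) and -0.25 between MT and KO tumors (95% interval -0.54 to 0.04, limma adjusted p = 0.592), or -0.07 with the term for MT1, MT2 and MT3. At 1436267_a_at the WT tumors were within 7.26 to 7.35 and the KO tumors within 7.10 to 7.35, while MT2 and MT3 read 7.75 and 7.72 against 7.06 in MT1 and 7.27 in MT4. The 95% intervals of both probe sets between WT and KO tumors, the other being -0.22 to 0.43, do not include a 1.58-fold difference between WT and KO tumors of the size found for Tsc1.

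**Figure D2:**
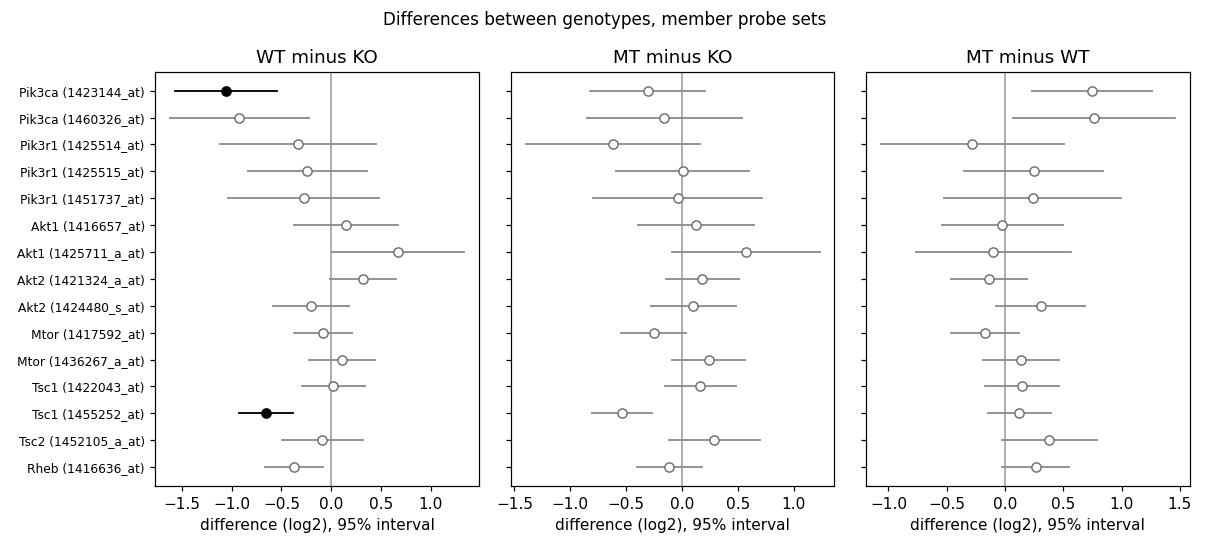
Differences in log2 level between genotypes (WT minus KO, MT minus KO, MT minus WT) for the 15 probe sets, with 95% intervals from limma; filled points passed at an adjusted p of 0.05. Only Pik3ca 1423144_at (-1.05) and Tsc1 1455252_at (-0.66) are filled, both between WT and KO tumors.

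Across the 15 probe sets, 10 were lower and 5 higher on average in WT than in KO tumors, with a median difference of -0.20 against 0.02 over all probe sets tested. At an unadjusted p under 0.05, 5 of the 15 differed (Akt1 1425711_a_at higher, and both Pik3ca probe sets, Tsc1 1455252_at and Rheb lower), or 33.3%, against 23.9% of all. Groups did not overlap for 3 of 15, all lower in WT tumors, against 6.1% of all probe sets in that direction. Between MT and KO tumors 0 of 15 passed by limma, 1 had an unadjusted p under 0.05 (Tsc1 1455252_at) and 0 passed by the methods' t-test, where 0.00884% of all probe sets passed by limma and 9.58% had such an unadjusted p. Tsc1 1455252_at was also the 1 member probe set whose MT and KO tumors did not overlap, against 2.88% of all probe sets with MT tumors higher and 1.97% with MT tumors lower. Between MT and WT tumors 0 of 15 passed by limma, 2 had an unadjusted p under 0.05, both for Pik3ca, 0 passed by the methods' t-test and 1 with array weights (Pik3ca 1423144_at), where 0.367% of all passed by limma and 19.4% had such an unadjusted p. No member probe set separated the MT from the WT tumors without overlap, as 4.44% of all did with MT tumors higher and 6.44% with MT tumors lower. The 15 probe sets stand for 8 genes, so probe sets of the same gene are counted more than once. The comparisons also share tumors, so these counts are not independent.

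Other genes of the pathway were taken from lists of 78 genes, of which 62 had a probe set, 111 in all. Between WT and KO tumors 11 of the 111 passed, for 10 genes, 10 higher and 1 lower in WT tumors, or 9.9% against 4.57% of all probe sets, 2.64% of which were higher in WT tumors. The median difference of the 111 was 0.09, against 0.02 over all probe sets. The count fell to 3 without WT3, 4 without WT1, 5 without KO2 and 6 without KO3. Between MT and KO tumors 0 passed by limma, and 0 by the methods' t-test or with array weights. At an unadjusted p under 0.05 there were 17, or 15.3%, against 9.58% of all probe sets. Between MT and WT tumors 0 passed by limma, and 31, or 27.9%, had such an unadjusted p, against 19.4% of all. There, 0 passed by the methods' t-test and 33 with array weights, 13 higher and 20 lower in MT tumors. Over all probe sets 22% passed with array weights between MT and WT tumors, 0.194% between MT and KO tumors and 14.5% between WT and KO tumors, and the methods' t-test called 0.0442% between WT and KO tumors and 0% in the comparisons with MT tumors.

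Among 13 probe sets of receptors and adaptors upstream of PI3K, 1 passed, for Igf1r, the receptor of insulin-like growth factors, on chromosome 7. At 1426565_at it read 6.90, 7.78, 7.27 and 7.02 in WT tumors, 8.68, 8.69, 8.25 and 8.06 in KO tumors and 7.89, 8.14, 8.07 and 8.37 in MT tumors. All WT tumors lay below all KO and all MT tumors. WT tumors were 2.26-fold lower than KO tumors, a log2 difference of -1.18 (SE 0.21, limma adjusted p = 0.0172), which without WT3 no longer passed (adjusted p = 0.0513). MT tumors were above WT tumors by 0.87 (adjusted p = 0.078), or by 1.13 with the term for MT1, MT2 and MT3 (adjusted p = 0.447). The other Igf1r probe set, 1452108_at, gave -0.06 between WT and KO tumors (adjusted p = 0.693).

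Among 11 probe sets of other PI3K subunits, 1 passed, Pik3cg 1422707_at, for the catalytic subunit p110-gamma found mainly in leukocytes. It read 6.84, 6.14, 7.22 and 6.76 in WT tumors, 5.70, 6.10, 6.13 and 5.70 in KO tumors and 6.06 to 6.24 in MT tumors. The difference between WT and KO tumors was 0.84 (SE 0.20, limma adjusted p = 0.0407). It passed in 2 of the 12 fits that left out 1 tumor, with adjusted p up to 0.10 among the other 10, was lost with tumor number as a block (adjusted p = 0.0592), and its second probe set gave 0.14 (adjusted p = 0.552). Of 4 phosphatase probe sets, 1 passed, Inpp5d 1424195_a_at, for the lipid phosphatase SHIP1 of blood cells. It was at 6.98 to 7.21 in WT, 6.25 to 6.69 in KO and 6.32 to 6.69 in MT tumors, higher in WT than KO tumors by 0.63 (SE 0.12, adjusted p = 0.0214). That call was lost without WT1 (adjusted p = 0.0586), WT3 (0.0552) or KO2 (0.0512). The other Inpp5d probe set, 1418110_a_at, gave 0.76 between WT and KO tumors, with overlapping groups, and did not pass (limma adjusted p = 0.0979). The leukocyte markers given above were also higher on average in WT than KO tumors. Among the WT tumors, their mean was highest in WT1 (8.24) and lowest in WT3 (6.93). Pik3cg 1422707_at was highest in WT3 (7.22) and Inpp5d 1424195_a_at in WT2 (7.21). The part of leukocytes in the differences of Pik3cg and Inpp5d was not tested.

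Of 7 probe sets for activators and relatives of Akt, 0 passed by limma between WT and KO tumors. At an unadjusted p under 0.05 there were 3, all of the same gene and higher in WT tumors. The methods' t-test passed 0 and array weights 2. The 9 probe sets of other mTOR complex subunits gave 0, 1, 0 and 1 in the same order. Over all probe sets these shares were 4.57%, 23.9%, 0.0442% and 14.5%. Of 13 probe sets for the Rag and Ragulator arm, which brings mTOR to the lysosome in response to amino acids, 1 passed, Lamtor1 1448718_at. This Ragulator subunit was at 7.87 to 8.24 in WT, 7.53 to 7.72 in KO and 7.92 to 8.36 in MT tumors. All KO tumors lay below all other tumors. WT tumors differed from KO tumors by 0.46 (SE 0.12, limma adjusted p = 0.0464), a call kept in 3 of the 12 fits that left out 1 tumor. MT tumors differed from KO tumors by 0.52 (limma adjusted p = 0.20), and by 0.32 with the term for MT1, MT2 and MT3. The difference passed without MT4 (0.59, adjusted p = 0.0482). Without MT4, all MT tumors left had high poly-A controls, so genotype and the controls cannot be told apart there. The other Lamtor1 probe sets gave 0.25 and 0.28 between WT and KO tumors and did not pass.

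The outputs of the pathway are proteins that Akt, mTOR or S6 kinase act on, most of them in translation. Of 34 probe sets 5 passed between WT and KO tumors, all higher in WT tumors, for 4 genes. Eif4ebp2, a repressor of cap-dependent translation that mTOR inactivates, passed at 2 of 5 probe sets. At 1436158_at it was at 8.38, 8.32, 8.28 and 8.21 in WT tumors, 7.46, 7.51, 7.40 and 7.68 in KO tumors and 8.01, 7.73, 7.56 and 8.09 in MT tumors. All WT tumors lay above all others, by 0.79 on average over KO tumors (SE 0.13, limma adjusted p = 0.0127) and with -0.45 between MT and WT tumors (adjusted p = 0.112), or -0.21 with the term for MT1, MT2 and MT3. At 1417084_at the difference between WT and KO tumors was 0.92 (SE 0.18, adjusted p = 0.0218), a call lost without WT1 (0.0635), WT3 (0.0607) or KO3 (0.0512) and in the fit to 8 tumors (0.0663). At the other 3 probe sets it was 0.36 to 0.48 without passing.

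Eef2k, the kinase that slows elongation by phosphorylating eEF2 and is inhibited by S6 kinase, was at 7.79, 7.72, 7.49 and 7.49 in WT tumors, 6.84, 6.63, 6.52 and 6.95 in KO tumors and 7.07, 7.45, 6.94 and 7.47 in MT tumors. WT and KO tumors differed by 0.89 (SE 0.15, limma adjusted p = 0.0163), and 4 of 4 WT tumors were above every KO and MT tumor. The MT tumors differed from KO tumors by 0.50 (adjusted p = 0.327), or by 0.74 with the term for MT1, MT2 and MT3 (adjusted p = 0.587). Eif4b, a helper of the helicase that unwinds mRNA and a target of S6 kinase, was higher in WT than KO tumors by 0.71 at 1426379_at (SE 0.16, adjusted p = 0.0365), a call kept in 3 of the 12 fits that left out 1 tumor. Its other probe sets gave 0.39 and 0.27 and did not pass. Bad, a pro-apoptotic protein that Akt inactivates, was at 7.35 to 7.49 in WT and 6.66 to 7.04 in KO tumors at 1416583_at, a difference of 0.57 (SE 0.12, adjusted p = 0.026) kept in 8 of those 12 fits, against 0.18 at its other probe set (adjusted p = 0.537).

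**Figure D3:**
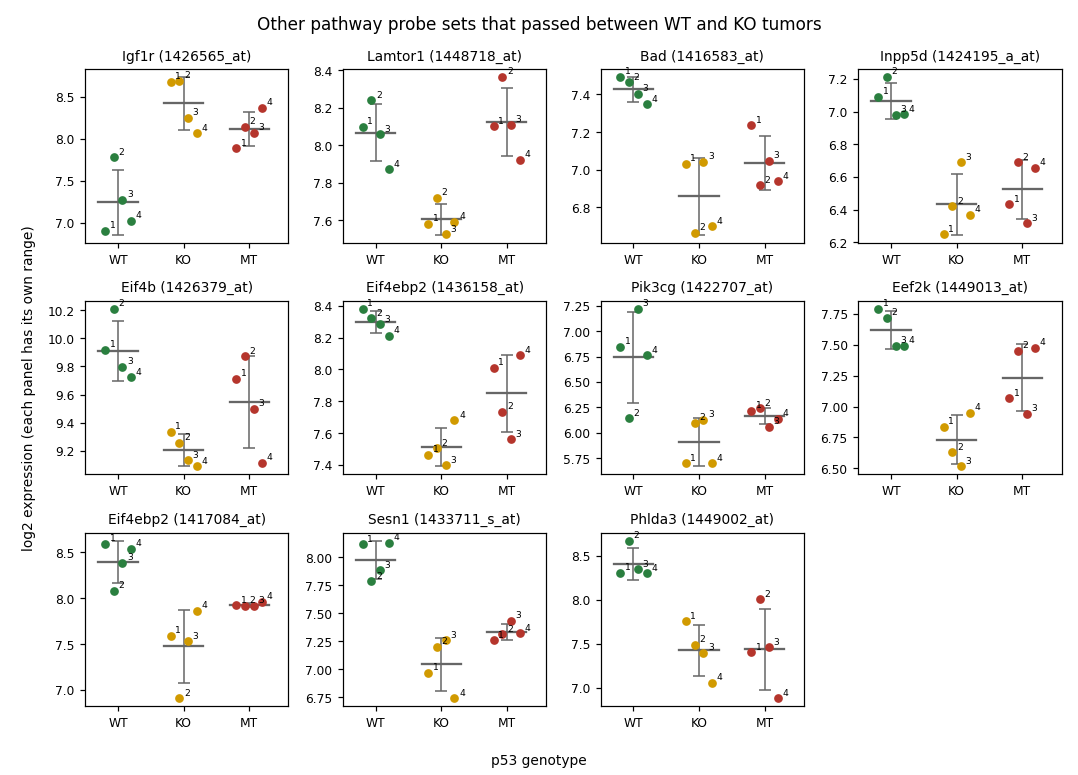
Log2 level in the 12 tumors of the probe sets of other pathway genes that passed between WT and KO tumors, with 1 point per tumor and the mean and SD of 4 tumors per genotype. WT tumors read lower than KO tumors for Igf1r and higher for the other genes.

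A further list held 7 inhibitors of the pathway that p53 is known to induce, Tsc2 among them, with 11 probe sets. Between WT and KO tumors 2 of the 11 passed, both higher in WT tumors, or 18.2% against 4.57% of all probe sets, and the median difference was 0.36 against 0.02. With array weights 5 of the 11 passed, against 14.5% of all, and 1 of them, Prkab1 1424119_at, was lower in WT tumors. Sesn1, a stress sensor that restrains mTOR through amino acid signaling, was at 8.12, 7.79, 7.89 and 8.13 in WT tumors at 1433711_s_at. It was at 6.97, 7.20, 7.26 and 6.74 in KO tumors and at 7.26, 7.31, 7.43 and 7.32 in MT tumors. WT tumors were above all others, by 0.94 over KO tumors (SE 0.13, limma adjusted p = 0.00845), and this passed in all 12 fits that left out 1 tumor. MT tumors differed from WT tumors by -0.65 (adjusted p = 0.059), or by -0.66 with the term for MT1, MT2 and MT3 (adjusted p = 0.46). This difference passed when each array was centered on its median (adjusted p = 0.0388) and after cyclic loess (adjusted p = 0.0316). The other Sesn1 probe sets gave 0.60 and 0.94 between WT and KO tumors and -1.41 and -0.98 between MT and WT tumors, and did not pass (adjusted p of 0.0611 to 0.254). With the term, the latter differences were -0.64 and -1.16. Between MT and KO tumors the Sesn1 probe sets disagreed in sign, and none passed. The differences were 0.29 at 1433711_s_at, -0.81 at 1438931_s_at and -0.03 at 1454699_at. With the term they were 0.28, -0.03 and -0.22. The suffix of 1433711_s_at and 1438931_s_at marks probes that may match more than 1 gene. Sesn1 and Eif4ebp2 lie on chromosome 10, whose 923 probe sets had a mean difference of 0.28 between WT and KO tumors.

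Phlda3, which competes with Akt for its membrane lipid, was at 8.30, 8.67, 8.35 and 8.30 in WT tumors, 7.75, 7.49, 7.40 and 7.06 in KO tumors and 7.40, 8.01, 7.46 and 6.88 in MT tumors. All WT tumors lay above all KO and MT tumors. The difference between WT and KO tumors was 0.98 (SE 0.22, limma adjusted p = 0.0326), kept in 6 of the 12 fits that left out 1 tumor. That between MT and WT tumors was -0.97 (adjusted p = 0.0705), or -1.52 with the term for MT1, MT2 and MT3 (adjusted p = 0.152). Sesn2, a relative of Sesn1, gave 0.36 and 0.41 between WT and KO tumors (adjusted p of 0.218 and 0.244), and -0.45 and -0.68 between MT and WT tumors (-0.47 and -0.57 with the term).

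The remaining genes of that list did not pass limma's test in any comparison. Prkab1, a subunit of the energy sensor AMPK, had the opposite sign, with -0.91 and -0.32 between WT and KO tumors (limma adjusted p of 0.104 and 0.532). At 1424119_at this passed with array weights (-1.15, adjusted p = 0.0192) and without WT2 (-1.16, adjusted p = 0.0449). With array weights both Prkab1 probe sets also passed as higher in MT than WT tumors (adjusted p of 0.00891 and 0.00642). Ddit4, an inhibitor of mTOR induced by hypoxia and DNA damage, differed by 0.11 between WT and KO tumors (adjusted p = 0.818). Igfbp3, which binds insulin-like growth factors, differed by -0.12 (adjusted p = 0.812), and was lower in MT than WT tumors with array weights (-0.67, adjusted p = 0.0306). Between MT and WT tumors 0 of the 11 probe sets passed by limma, 8 had an unadjusted p under 0.05, of which 6 were lower in MT tumors, 0 passed by the methods' t-test and 8 with array weights. Over all probe sets, 19.4% had such an unadjusted p and 22% passed with array weights.

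**Figure D4:**
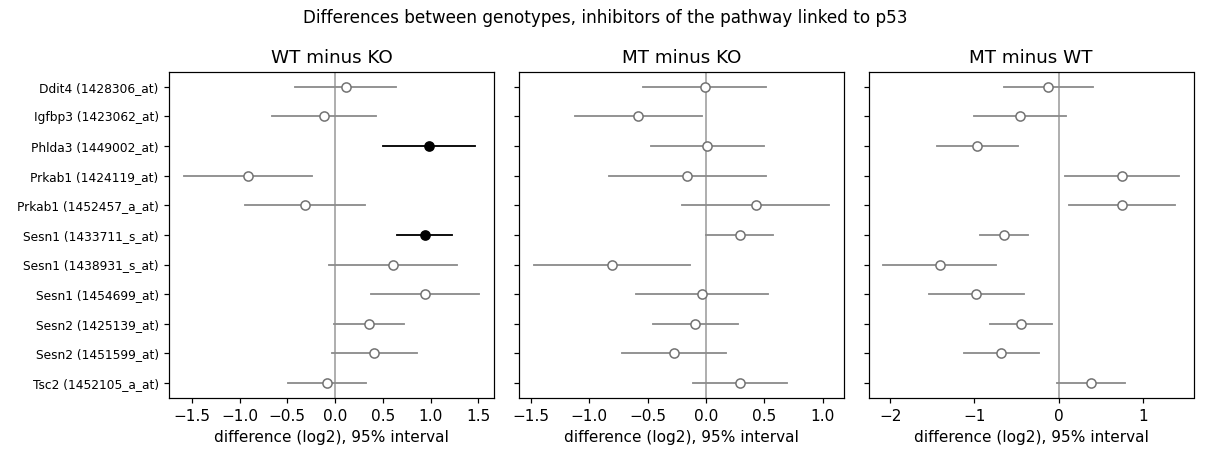
Differences in log2 level between genotypes for the 11 probe sets of pathway inhibitors known to be induced by p53, with 95% intervals from limma; filled points passed at an adjusted p of 0.05. Sesn1 1433711_s_at (0.94) and Phlda3 (0.98) are filled between WT and KO tumors, and none is filled in the comparisons with MT tumors.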

How the data were processed

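Each of 12 tumors was hybridized to 1 Affymetrix mouse expression array. The deposited table holds log2 expression values per probe set. The authors' methods state RMA (background correction, quantile normalization and summary of probes), whereas the submitters' processing notes name MAS5 as well as RMA without saying from which of them the table came. Such values compress differences of dim probe sets, and they cannot be compared between probe sets. The table gives no counts, so the number of arrays limits the precision.

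Of 22690 probe sets, 64 controls were left out. Of the 22626 tested, 20380 have 1 annotated symbol, 691 several and 1555 none. A mean per genotype was estimated from all 12 tumors using lmFit and eBayes of limma 3.58.1 (R 4.3.3), which leaves 9 residual degrees of freedom, and p-values were 2-sided, adjusted by Benjamini-Hochberg across the 22626 probe sets, and judged at 0.05. No filter on low values was applied. Scripts were tested on simulated data. Alternatives were other scalings, a filter on dim probe sets, other variance models, array weights, the methods' t-test, other thresholds, 1 probe set per gene, blocks, a covariate for the hybridization controls, and leaving out each tumor. The methods' SAM procedure was not used here. Promoters and chromosomes are from RefSeq, GRCm38.p6, which gave windows for all 8 genes. The text names all members, every other listed gene that passed in a comparison, all p53-linked inhibitors, and the 5 genes most like the member with the smallest F-test p. Members and lists were chosen with earlier results of these data known. Figures were drawn with matplotlib 3.10.9 in Python 3.11.15.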

Additional observations from a re-analysis of the deposited data

Results flagged for a closer look

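The levels of 34 probe sets, the members and the other named pathway genes, were examined for single tumors far from the rest in each of 3 genotypes, 102 groups of 4 tumors, and chance alone marks about 1 in 20 such groups. There were 4 such tumors. Akt2 1421324_a_at was at 7.69 in KO1, against 7.27 to 7.32 in the other KO tumors. Eif4ebp2 1417084_at was at 7.96 in MT4, against 7.917 to 7.922 in the other MT tumors. Phlda3 1449002_at was at 8.67 in WT2, against 8.30 to 8.35 in the other WT tumors. Prkab1 1452457_a_at was at 7.84 in KO4, the lowest KO tumor, against 8.32 to 8.41 in the others.

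Outside the measured genes, the poly-A labeling controls had a mean log2 level of 10.6 in MT3 and were similarly high in MT1 and MT2, against 3.98 to 4.23 in the other 9 tumors. Their part in the differences of MT tumors was not tested beyond the values given with the term for these tumors.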

How the results depend on the processing

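For WT against KO tumors, the 2 pathway members called became 1 in a fit to the 8 tumors compared, 0 with the methods' t-test, 0 at an adjusted p of 0.01 and 1 with 1 probe set per gene, and 1 to 2 with each tumor left out. The other pathway probe sets called, 11, became 6 in the fit to 8 tumors, 23 with array weights (17 higher and 6 lower), 0 with the methods' t-test, 18 at an adjusted p of 0.10, 1 at 0.01 and 6 with 1 probe set per gene, and 3 to 12 with each tumor left out. By the F test, 1 member was called, against 0 without dim probe sets (14 of 15 members kept), with trended and robust moderation, with the ordinary F test, at 0.01, and with a block for tumor number or for MT1, MT2 and MT3, 3 with array weights, 2 at 0.10, and 0 to 2 with each tumor left out.

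For MT against WT tumors, where 0 members were called, array weights gave 1, and leaving out tumors gave 0 to 0. Of the other pathway probe sets, 0 of which were called, 1 was called with centered arrays, 1 after cyclic loess, 1 without dim probe sets, 33 with array weights (13 higher and 20 lower) and 6 at 0.10. Leaving out each tumor gave 0 to 6: 6 without MT4 (Pik3r2, Inpp5d, Rps6, Eif4ebp2 and 2 probe sets of Sesn1), 5 without WT2 (Igf1r, Pik3cg and 3 probe sets of Sesn1), 1 without WT4 (Rictor) and 1 without KO4 (Sesn1). For MT against KO tumors, no alternative called a member, and other pathway probe sets numbered 0 to 4 with each tumor left out, the 4 being those of Lamtor1, Lamtor5, Rps6 and Eif4b without MT4. In the fits without MT4, all MT tumors left had high poly-A controls, so genotype and the controls cannot be told apart in their MT differences. Genes in these lists that are not named elsewhere were chosen after their values were seen. The cause was not tested.

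The tumor numbers of the titles were not taken as pairs: deviations of same-numbered tumors correlated at 0.002 to 0.335, over 0.1 in 6 of 12 pairs. With that number as a replicate block, 2 members and 12 other pathway probe sets were called between WT and KO tumors, with the call of Pik3cg 1422707_at lost (adjusted p = 0.0592). Over 25 settings, 2490 values of 102 differences were recomputed, and 2334 kept their side of the threshold. Among these, differences not called in the main fit had moved by less than 1 SD, whatever their sign. Calls that were kept were not checked for how far they moved. The call was lost by 86 and gained by 44, 26 uncalled values moved further and 0 called values changed sign. With 4 arrays per genotype, the 95% intervals of the member differences spanned 0.54 to 1.57 on the log2 scale.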
